A study of Mus musculus with 4 samples.

Results

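The genes examined here encode the nuclear-encoded subunits of the mitochondrial respiratory chain and of the ATP synthase. They were chosen by symbol alone: Ndufa, Ndufb, Ndufc, Ndufs or Ndufv followed by a number, Sdha to Sdhd, every symbol starting with Uqcr or Atp5, and Cox4 to Cox8 followed by a letter. The rule found 81 of the 17393 genes in the deposited table, of which 37 belong to complex I by name, 4 to complex II, 8 to complex III, 15 to complex IV and 17 to complex V. RNA was sequenced from the DS19 line of mouse erythroleukemia (MEL) cells, a transformed erythroid precursor line. There were 2 libraries from cells labelled Wdr26-/- (knockout, KO) and 2 from wild-type cells (WT), numbered 1 and 2 within each genotype. All 4 libraries share the line and the culture description, which names 1.5% dimethyl sulfoxide (DMSO, used to push these cells toward a red cell-like state) without saying whether the sequenced cells received it. How the knockout was made, whether it is 1 clone, and whether a number marks a shared culture are not stated in the labels. The p-values therefore measure the spread between these libraries, which may be technical.

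The respiratory chain passes electrons from NADH (complex I) and succinate (complex II) through ubiquinone, complex III and cytochrome c to oxygen at complex IV. The protons pumped on the way drive complex V, the ATP synthase. A few catalytic subunits are encoded in mitochondrial DNA and the others in the nucleus, and most of those carry a symbol that the rule covers. Red cell precursors need mitochondria for heme synthesis and discard them late in maturation.

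Expression was read as FPKM, a unit that divides a gene's fragments by its length and by the library's depth, so levels of different genes can be set side by side. Steps in the low values of short genes corresponded to roughly 19100000 to 20400000 fragments per library if no transcript length is lost to fragment size, and to 24500000 to 26500000 if 200 bases are lost. These depths are rough, since 59.8% to 77.5% of the values used fell within 0.15 of a whole fragment. The targeted gene Wdr26 stood at 9 and 7.84 FPKM in KO libraries 1 and 2 and at 55.4 and 52.4 FPKM in WT libraries 1 and 2 (limma, Benjamini-Hochberg adjusted p = 0.0063). All 10 erythroid markers examined reached 1 FPKM, with sums of 153800 and 179260 FPKM in KO and 169420 and 208140 FPKM in WT. Of these 10, 6 were lower in both KO libraries (against 10.8% of all genes tested) and none passed the test, with Slc4a1, the anion exchanger of the red cell membrane, at 48.6 and 6.70 FPKM in KO and 436 and 285 FPKM in WT (limma adjusted p = 0.166). The part of this difference in the results on subunit genes was not tested. None of the 5 myeloid, 3 lymphoid, 3 muscle and 1 fibroblast markers in the table reached 1 FPKM. Of 5 megakaryocyte markers 4 reached it, with sums of 278 and 289 FPKM in KO and 250 and 305 FPKM in WT. The KO libraries differed more from each other than from the WT library of the same number, and the WT libraries were the closest pair: the log2 differences of the 10670 genes tested had an SD of 0.31 between KO library 1 and WT library 1 and 0.33 between KO library 2 and WT library 2, against 0.36 within KO and 0.27 within WT. Between libraries of unlike number the SD was 0.36 for KO library 1 and WT library 2, and 0.44 for KO library 2 and WT library 1. In bulk RNA, fewer cells expressing a gene and less of its RNA per cell cannot be told apart.

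Subunit genes were among the more abundant transcripts of these cells. Their median level over the 4 libraries was 111 FPKM for the 79 that passed the filter on low values (at least 1 FPKM in at least 2 libraries), against 11.6 FPKM over all genes tested. Of all FPKM in a library, the 81 genes together held 2.26% and 1.85% in KO libraries 1 and 2 and 2.06% and 1.86% in WT libraries 1 and 2. Complex IV was highest, with median levels of 306 and 268 FPKM in KO and 286 and 274 FPKM in WT. Complex V followed at 246 and 188 FPKM in KO and 197 and 192 FPKM in WT. Complex III stood at 128 and 106 FPKM in KO and 115 and 107 FPKM in WT. Complexes I and II were lowest, at 84.5 and 72.1 FPKM and at 83.3 and 79.1 FPKM in KO, and at 80.0 and 80.7 FPKM and at 70.2 and 71.9 FPKM in WT.

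**Figure D1:**
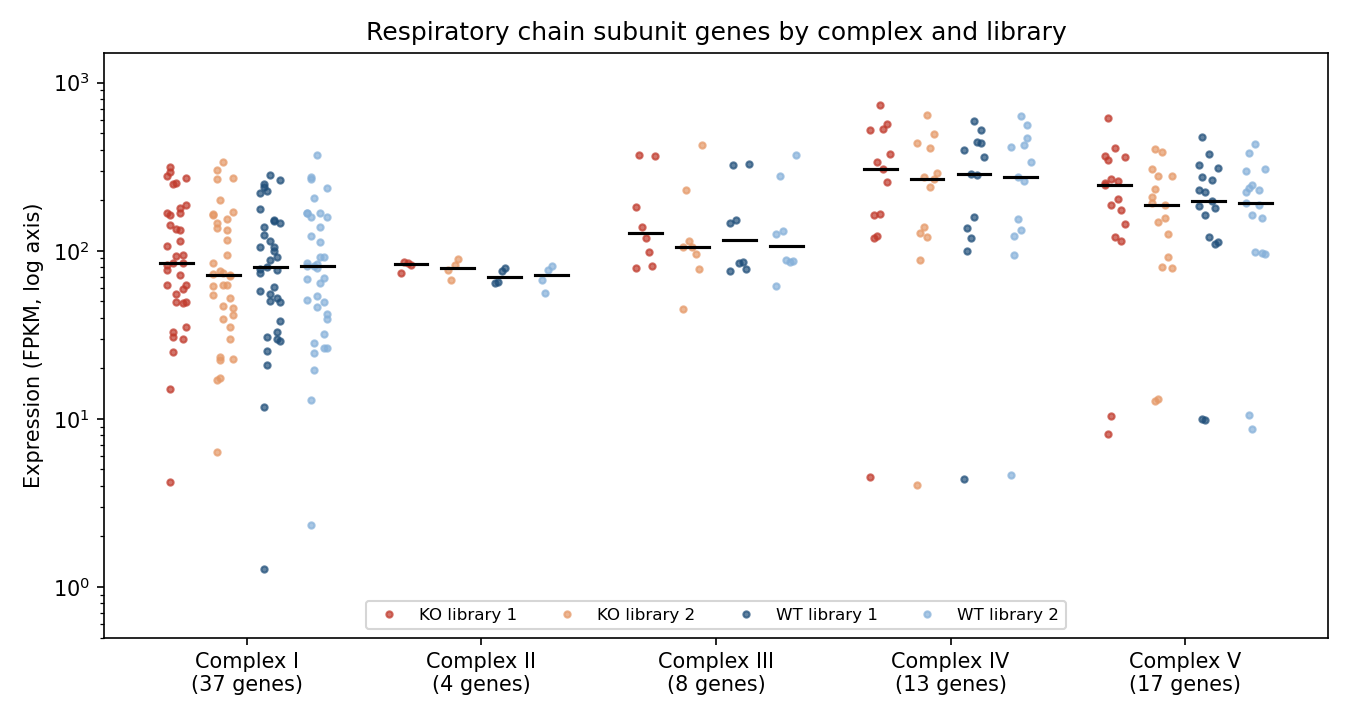
Levels of the 79 subunit genes that passed the filter, by complex (horizontal) and library (colour), in FPKM on a log axis. Each point is 1 gene and each black bar the median of the complex in that library. Medians of complex IV lie between 268 and 306 FPKM and those of complex II between 70.2 and 83.3 FPKM, and the libraries of the 2 genotypes cover nearly the same ranges.

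The members that failed the filter were Cox4i2, the lung-type isoform of subunit 4, listed at 0 in every library, and Cox6a2, the heart and muscle isoform of subunit 6a, at no more than 0.32 FPKM. Their widely expressed counterparts Cox4i1 and Cox6a1 were among the most abundant members. Cox6a1 stood at 740 and 641 FPKM in KO libraries 1 and 2 and at 590 and 631 FPKM in WT libraries 1 and 2. Cox4i1 stood at 525 and 438 FPKM in KO and at 399.8 and 413 FPKM in WT. Both KO libraries were above both WT libraries for each gene, but neither passed the test (limma adjusted p = 0.763 for Cox6a1 and 0.65 for Cox4i1). Cox7a1, the heart and muscle isoform of subunit 7a, was low but measurable, and made up 3.64% and 4.40% of the summed Cox7a1 and Cox7a2 level in KO and 4.20% and 4.69% in WT. Cox8a, the single subunit 8 gene in the table, averaged 532 ± 53.7 FPKM in KO and 539 ± 24.6 FPKM in WT (SD, n = 2 each).

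The knockout was compared with wild type by limma on log2(FPKM + 1) over all genes tested. No subunit gene passed an adjusted p of 0.05 (0 of 79), where 0.0937% of all genes tested did. This fit had no term for the library number. With the number as a block, 6 of 79 passed, beside 1863 of the 10670 genes tested, but the labels do not say what a number shares. At an unadjusted p under 0.05 there were 4 of 79 (Cox6b2, Ndufa4l2, Uqcrc1 and Ndufs4), against 11.4% of all genes tested. Changes were small: 73 of the 79 had a log2 change of less than 0.3 in size, and 2 differed by 1.5-fold or more between group means (2.53%), against 8.28% of all genes tested. Both KO libraries lay above both WT libraries for 23 subunit genes (29.1%, against 29.9% of all genes tested) and below them for 3 (3.80%, against 10.8%). This balance depended on scaling, in settings whose counts were added after these were seen. With values centred on the library median, 9 members lay above (11.4%, against 19.9% of all genes tested) and 7 below (8.86%, against 20.1%). With quantile normalization 22 lay above (27.85%, against 20.7%) and 7 below (8.86%, against 20.1%). With the globin genes left out of the scaling 13 lay above (16.46%, against 22.3%) and 7 below (8.86%, against 15.2%).

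Cox6b2 had the most negative log2 change of all subunit genes tested and was lower in both KO libraries, although it did not pass the test. It encodes the isoform of subunit 6b of cytochrome c oxidase that is known from testis, and its counterpart in most tissues is Cox6b1. Cox6b2 (gene ID 333182, chromosome 7, 4751792 to 4753094, mm10) stood at 258 and 268 FPKM in KO libraries 1 and 2 and at 436 and 466 FPKM in WT libraries 1 and 2. The groups were far apart and the libraries within each were close. It averaged 263 ± 7.47 FPKM in KO and 451 ± 21.5 FPKM in WT (SD, n = 2 each), which puts KO at 58.4% of WT. The log2 change was −0.77 with a standard error of 0.13, which did not pass over all genes (limma adjusted p = 0.152, unadjusted p = 0.00113). With 1 library left out, the limma adjusted p was 0.0276 without KO library 1, 0.0289 without KO library 2, 0.609 without WT library 1 and 0.638 without WT library 2. Without a KO library the spread comes from the WT pair alone, the closest pair, and the lone KO library is assumed to vary like it, so these passes are no added support.

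Cox6b1 (gene ID 110323, chromosome 7, 30616971 to 30626114) did not show this pattern. It stood at 533 and 406 FPKM in KO libraries 1 and 2 and at 443 and 426 FPKM in WT libraries 1 and 2, so that the KO libraries lay on either side of WT (log2 change 0.10, SE 0.18, limma adjusted p = 0.905). Cox6b2 made up 32.6% and 39.8% of the summed Cox6b2 and Cox6b1 level in KO, against 49.6% and 52.2% in WT. The longest stretch of identical sequence between the 2 mRNAs was 14 bases, and no processed pseudogene matched either over at least 50% of its length at 95% identity or more. Neither gene overlaps a neighbour in the gene table.

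The start regions of Cox6b2, of Cox6b1 and of Uqcrc1, the complex III gene with the largest log2 change, are shown to set the isoform pair beside a subunit gene with the NRF1 motif. Each window runs from 250 bases before to 50 bases after the RefSeq gene start (GRCm38.p6, the assembly of mm10) and is written 5′ to 3′ on the gene's strand. Capitals mark exact matches, on either strand, to the NRF1 motif (GCGCA, any base, GCGC), the ETS motif CCGGAAG, the YY1 motif AAGATGGCG, the CCAAT box or the GATA motif AGATAA. They lie at chr7:4753045-4753344 on the minus strand for Cox6b2, chr7:30626065-30626364 on the minus strand for Cox6b1 and chr9:108936398-108936697 on the plus strand for Uqcrc1.
Cox6b2: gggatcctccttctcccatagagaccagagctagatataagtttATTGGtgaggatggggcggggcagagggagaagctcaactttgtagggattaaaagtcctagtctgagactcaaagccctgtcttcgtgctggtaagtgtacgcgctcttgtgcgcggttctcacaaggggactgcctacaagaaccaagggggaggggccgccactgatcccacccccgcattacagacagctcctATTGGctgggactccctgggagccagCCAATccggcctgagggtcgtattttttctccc
Cox6b1: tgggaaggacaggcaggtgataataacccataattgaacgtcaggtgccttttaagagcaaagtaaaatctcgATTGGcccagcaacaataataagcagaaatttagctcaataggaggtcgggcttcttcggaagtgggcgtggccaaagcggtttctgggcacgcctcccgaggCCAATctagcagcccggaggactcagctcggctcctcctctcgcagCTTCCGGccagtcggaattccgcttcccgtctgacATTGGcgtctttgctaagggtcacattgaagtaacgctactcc
Uqcrc1: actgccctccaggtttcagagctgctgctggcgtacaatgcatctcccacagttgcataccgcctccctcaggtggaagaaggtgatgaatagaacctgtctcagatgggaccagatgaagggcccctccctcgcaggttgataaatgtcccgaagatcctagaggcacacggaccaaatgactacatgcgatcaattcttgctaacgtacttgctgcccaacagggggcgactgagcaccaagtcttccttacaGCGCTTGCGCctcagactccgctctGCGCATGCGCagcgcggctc

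The Cox6b2 window held 3 CCAAT boxes and no match to the other motifs, and the Cox6b1 window held 3 CCAAT boxes and 1 ETS motif. The Uqcrc1 window held NRF1 motifs at 2 places, both after the gene start. The one farther downstream reads the same on both strands and was counted on each. Windows were found for 67 of the 81 genes, and the NRF1 motif occurred in 17 of them (25.4%), in 13.1% of the windows of all genes tested and in 5.19% of all genes in the promoter table. NRF1 is a transcription factor known to bind many genes of the respiratory chain. The YY1 motif occurred in 8 of 67 (11.9%, against 4.20% of tested genes and 1.64% of all), and the ETS motif, which the factor GABPA recognises, in 16 of 67 (23.9%, against 22.9% and 9.93%). The CCAAT box occurred in 30 of 67 (44.8%, against 43.9% and 41.1%) and the erythroid GATA motif in 6 of 67 (8.96%, against 7.36% and 12.7%). None of the 3 windows shown held a YY1 or a GATA motif. A match is a match of letters and does not show binding.

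Ndufa4l2 had the most positive log2 change of all subunit genes tested. It is a low-oxygen-induced relative of Ndufa4, whose protein is now counted as a subunit of complex IV although its name places it in complex I. Ndufa4l2 (gene ID 407790, chromosome 10, 127509274 to 127517154) stood at 4.2 and 6.31 FPKM in KO libraries 1 and 2 and at 1.28 and 2.34 FPKM in WT libraries 1 and 2. Both KO libraries were above both WT libraries, and in each genotype library 2 was the higher. The KO mean of 5.26 ± 1.49 FPKM was 2.90-fold the WT mean of 1.81 ± 0.75 FPKM (SD, n = 2 each), and the log2 change of 1.16 (SE 0.26), which understates changes at such low levels, did not pass (limma adjusted p = 0.214, unadjusted p = 0.00393). With 1 library left out, the limma adjusted p was 7.94e-06 without KO library 1, 0.0209 without KO library 2, 0.731 without WT library 1 and 0.368 without WT library 2, with the same limit as for Cox6b2. Its end overlaps 32 bases of Shmt2 on the opposite strand, and Shmt2, which stood at 41.2 and 19.4 FPKM in KO and 34.0 and 22.95 FPKM in WT, had a log2 change of 0.02 (limma adjusted p = 0.993). Whether reads of the pair were shared was not tested. Ndufa4 itself stood at 279 and 166 FPKM in KO and at 220 and 169 FPKM in WT (limma adjusted p = 0.898), so Ndufa4l2 made up at most 3.66% of the summed level of the pair.

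**Figure D2:**
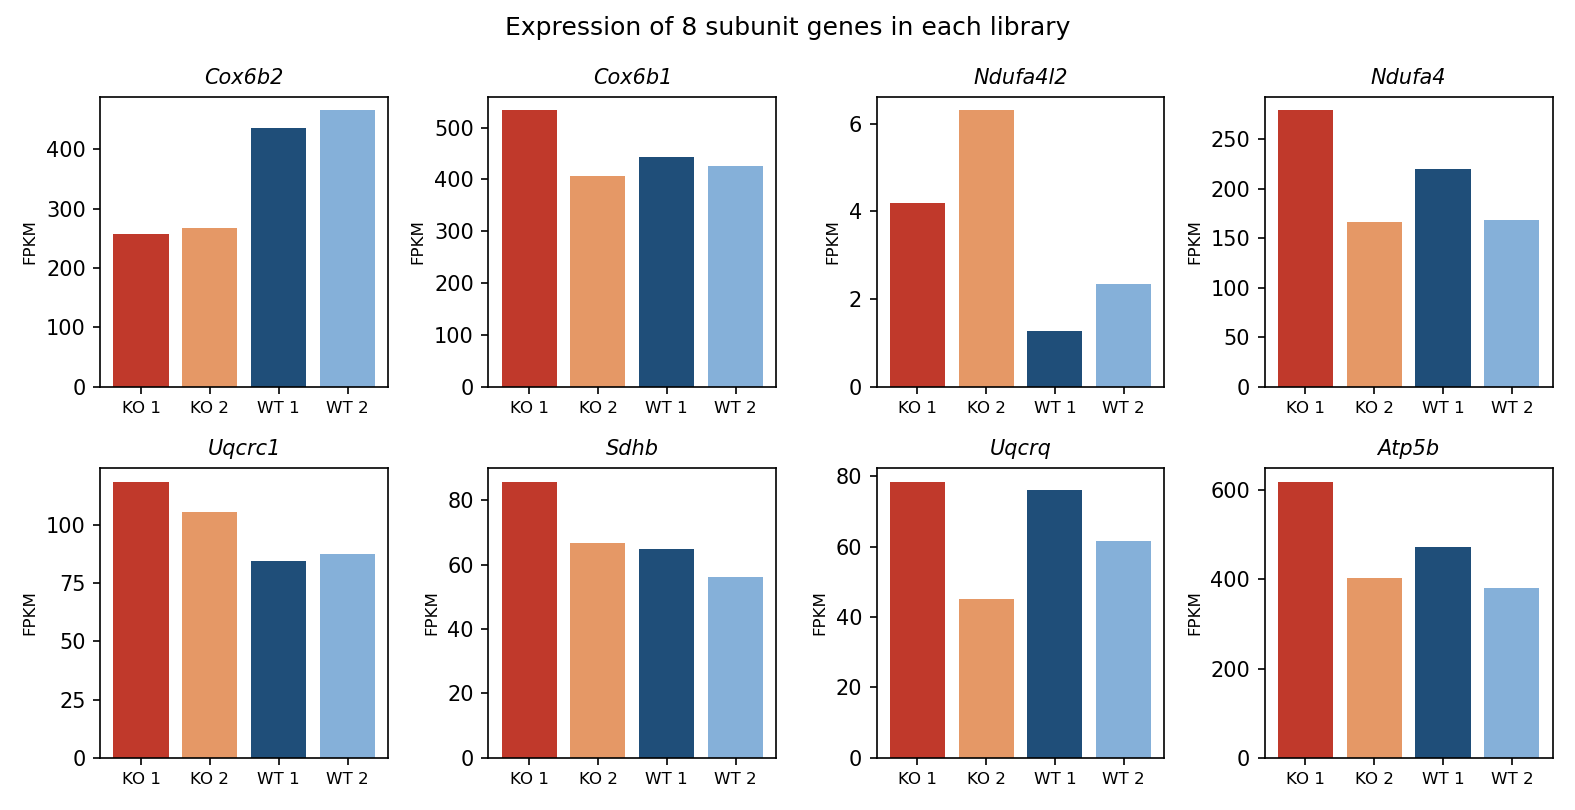
Expression of 8 subunit genes in FPKM (vertical axes from 0, scaled per gene) in KO libraries 1 and 2 and WT libraries 1 and 2; each bar is 1 library. Cox6b2 lies between 258 and 268 FPKM in KO against 436 to 466 FPKM in WT, Ndufa4l2 is higher in both KO libraries, and Atp5b, Ndufa4 and Cox6b1 are highest in KO library 1.

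Complex I showed small differences, and the log2 changes of its 37 genes had a median of 0.09 (0.01 with median-centred values), beside 0.07 over all genes tested. The 7 core subunits, which carry the flavin, the iron-sulfur clusters and the ubiquinone site, had a median of 0.11 and the 30 accessory members one of 0.05. Between the libraries numbered 1 the KO minus WT medians of core and accessory members were 0.18 and 0.20. Between those numbered 2 they were 0.11 and −0.05. Ndufs8, a core subunit with iron-sulfur clusters, stood at 48.8 and 35.3 FPKM in KO and 33.0 and 32.2 FPKM in WT (limma adjusted p = 0.564). Ndufs4, an accessory subunit whose loss causes Leigh syndrome in people and a similar disease in mice, stood at 15.1 and 16.9 FPKM in KO and 11.7 and 13.0 FPKM in WT (log2 change 0.35, limma adjusted p = 0.422). In both genes the KO libraries were above the WT libraries.

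Among accessory subunits the most abundant were Ndufa6, Ndufb11 and Ndufb8. Ndufa6 stood at 252 and 336 FPKM in KO and 283 and 369 FPKM in WT, and unlike most members it was higher in library 2 of both genotypes. Ndufb11 averaged 298 ± 5.17 FPKM in KO and 255 ± 24.7 FPKM in WT, and Ndufb8 averaged 289.7 ± 33.8 FPKM in KO and 258 ± 10.3 FPKM in WT (SD, n = 2 each). The most negative log2 change in complex I was that of Ndufa2, at 84.3 and 70.9 FPKM in KO and 92.3 and 92.2 FPKM in WT (log2 change −0.25, limma adjusted p = 0.595). Ndufa1 was the remaining member that was lower in both KO libraries, at 167 and 164 FPKM in KO and 176 and 168 FPKM in WT.

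Complex II, succinate dehydrogenase, is both a respiratory complex and an enzyme of the citric acid cycle, and has no mitochondrially encoded subunit. All 4 of its genes were higher in both KO libraries than in both WT libraries, beside 29.9% of all genes tested. None passed the test (limma adjusted p between 0.567 and 0.872). With median-centred values 1 of the 4 was higher in both KO libraries (25%, against 19.9% of all genes tested). With quantile normalization 3 were (75%, against 20.7%), and with the globin genes left out 2 (50%, against 22.3%). The mRNAs of complex II had a median length of 2065.5 nt, against 758 nt over the 79 members tested. The 14 members of 1500 to 3000 nt, which include Sdha, had a median log2 change of 0.20, beside 0.16 in complex II. The part of length in this rise was not tested. Sdha, the flavoprotein, stood at 73.3 and 76.5 FPKM in KO and 64.3 and 66.9 FPKM in WT. Sdhb, the iron-sulfur subunit, stood at 85.7 and 66.7 FPKM in KO and 64.8 and 56.2 FPKM in WT, the largest change of the complex (log2 change 0.32, SE 0.17). The membrane anchors Sdhc and Sdhd averaged 83.1 ± 1.97 and 85.4 ± 4.84 FPKM in KO and 76.2 ± 0.891 and 79.98 ± 1.10 FPKM in WT (SD, n = 2 each).

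In complex III the large core proteins Uqcrc1 and Uqcrc2 were higher in both KO libraries. Uqcrc1 stood at 119 and 106 FPKM in KO and 84.7 and 87.7 FPKM in WT (log2 change 0.37, SE 0.13, limma adjusted p = 0.382), and Uqcrc2 at 98.5 and 95.8 FPKM in KO and 85.5 FPKM in both WT libraries. The Rieske iron-sulfur subunit Uqcrfs1 overlapped between genotypes, at 81.0 and 77.7 FPKM in KO and 78.1 and 86.6 FPKM in WT. The 5 small subunits had a median log2 change of −0.04. Their KO minus WT median was 0.16 between the libraries numbered 1 and −0.25 between those numbered 2. None of these 5 was higher in both KO libraries (against 29.9% of all genes tested) or lower in both (against 10.8%). Uqcrq, which lies near the ubiquinone sites, stood at 78.4 and 45.2 FPKM in KO and 76.2 and 61.7 FPKM in WT. Uqcr11 stood at 372 and 229 FPKM in KO and 322 and 279 FPKM in WT, and Uqcr10 at 182 and 106 FPKM in KO and 145 and 126 FPKM in WT. In these 3 genes KO library 1 was the highest and KO library 2 the lowest of the 4. Uqcrh, the hinge protein, was higher in library 2 of both genotypes and higher in KO at both numbers, at 368 and 423 FPKM in KO and 330 and 371 FPKM in WT.

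The median log2 change in complex III was 0.00 (−0.08 with median-centred values). In complex IV the median over the 13 genes tested was 0.00 (also −0.08 with median-centred values), and Cox6b2 stood apart from the others, whose changes ran from −0.07 to 0.24. Cox7a2l, named for subunit 7a but known as a factor of supercomplex assembly, stood at 123 and 139 FPKM in KO and 119.6 and 155 FPKM in WT. Cox7b, of which libraries 2 held less in both genotypes, stood at 166 and 121 FPKM in KO and 159 and 133 FPKM in WT. With single libraries left out, the median of complex IV was −0.12 without KO library 1 and 0.19 without KO library 2. That of complex III was −0.20 without KO library 1 and 0.20 without KO library 2.

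The 17 genes of complex V had a median of 0.03 on the log2 scale, which turned to −0.05 with median-centred values. For the 5 genes of the F1 head the median was 0.12, for the 3 genes of the c ring 0.16 and for the 7 stalk and membrane genes −0.01. Between the libraries numbered 1 the KO minus WT medians of these 3 groups were 0.19, 0.35 and 0.06. Between those numbered 2 they were 0.05, −0.02 and −0.15. Atp5b, the catalytic beta subunit, was the most abundant at 619 and 403 FPKM in KO and 473 and 379.9 FPKM in WT (limma adjusted p = 0.805). Atp5a1, the alpha subunit, averaged 337 ± 42.0 FPKM in KO and 309 ± 18.3 FPKM in WT, and Atp5d, the delta subunit, 397 ± 16.5 FPKM in KO and 404 ± 35.4 FPKM in WT (SD, n = 2 each). The 3 genes for the c ring encode the same mature protein behind different import sequences. Their split was nearly the same in the 4 libraries, with Atp5g3 at 46.6% and 46.3% in KO and 47.9% and 45.1% in WT, Atp5g2 at 34.1% and 38.1% in KO and 32.5% and 36.5% in WT, and Atp5g1 at 19.3% and 15.6% in KO and 19.7% and 18.3% in WT. Atp5sl and Atp5s match the symbol rule but are not ATP synthase subunits. Atp5sl, which is known as a complex I assembly factor, stood at 10.4 and 13.1 FPKM in KO and 9.89 and 8.74 FPKM in WT, and Atp5s at 8.18 and 12.9 FPKM in KO and 9.96 and 10.6 FPKM in WT.

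The difference between genotypes depended on the library number for many subunit genes. Between the libraries numbered 1 the median KO minus WT difference was 0.17 on the log2 scale over the 79 members, beside 0.05 over all genes tested. Between the libraries numbered 2 it was −0.05 over the members, beside 0.09 over all genes tested. There were 35 members for which KO was above WT at number 1 and below it at number 2 (44.3%), a pattern of 13.4% of all genes tested. The opposite pattern held for 1 member, Atp5s, and for 18.8% of all genes tested. By complex the 35 were 14 of 37 in complex I, 0 of 4 in complex II, 4 of 8 in complex III, 8 of 13 in complex IV and 9 of 17 in complex V. KO library 1 was the highest of the 4 for 52 members (65.8%, against 34.1% of all genes tested), and KO library 2 the lowest for 38 (48.1%, against 26.0%). KO lay above WT at both numbers for 33 members (41.8%, against 45.1%) and below at both for 10 (12.7%, against 22.2%). With 1 library of each genotype per number, the difference between the numbers was not tested.

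The crossing pattern was counted again under the other scalings. With median-centred values it held for 45 members (56.96%, against 17.9% of all genes tested) and its opposite for 2 (2.53%, against 14.7%). With quantile normalization it held for 25 (31.65%, against 14.8%) and its opposite for 5 (6.33%, against 16.3%). With the globin genes left out it held for 26 (32.91%, against 9.46%) and its opposite for 5 (6.33%, against 26.1%). KO library 1 was the highest for 39 members when median-centred (49.37%, against 24.0%). It was the highest for 41 under quantile normalization (51.9%, against 23.4%) and for 38 with the globin genes left out (48.1%, against 23.3%). KO library 2 was the lowest for 43 (54.43%, against 31.0%), 33 (41.77%, against 29.9%) and 40 (50.63%, against 26.2%) under the same settings. KO lay above WT at both numbers for 16 (20.25%, against 33.0%), 32 (40.51%, against 33.9%) and 25 (31.65%, against 35.3%).

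**Figure D3:**
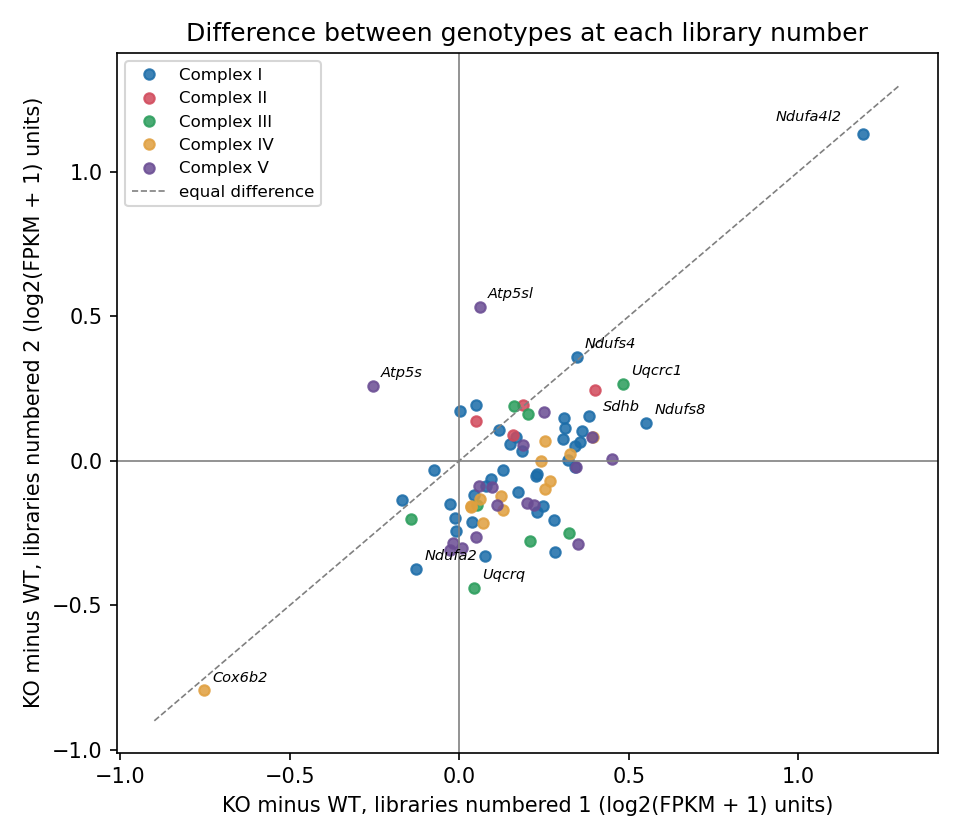
Difference between KO and WT on the log2(FPKM + 1) scale for each of 79 subunit genes, between the libraries numbered 1 (horizontal) and those numbered 2 (vertical), coloured by complex. The dashed line marks equal differences. The 35 genes at the lower right were higher in KO at number 1 and lower at number 2, while Cox6b2 and Ndufa4l2 lie near the dashed line and far from the rest.

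Compared by library number, subunit genes were at the median lower in library 2 of each genotype. In KO this difference was larger than over all genes tested, and in WT it was smaller. The median difference of library 2 minus library 1 was −0.26 in KO and −0.06 in WT, beside −0.04 and −0.10 over all genes tested. Both genotypes were lower in library 2 for 45 of 79 members (57.0%, against 46.5% of all genes tested), and higher in it for 14 (17.7%, against 24.0%). With median-centred values 28 were lower (35.44%, against 33.8%) and 17 higher (21.52%, against 38.7%). With quantile normalization 37 were lower (46.84%, against 35.9%) and 18 higher (22.78%, against 36.9%). With the globin genes left out 45 were lower (56.96%, against 43.6%) and 15 higher (18.99%, against 24.3%). Averaged over the genotypes, the median difference was −0.13 in complex I, 0.02 in complex II, −0.15 in complex III, −0.19 in complex IV and −0.19 in complex V, beside −0.07 over all genes tested. The largest single differences were those of Ndufa12, an accessory subunit of complex I, at 134 and 73.3 FPKM in KO libraries 1 and 2 and 114 and 82.9 FPKM in WT libraries 1 and 2, and of Ndufa4. Atp5g1 followed the same course at 144 and 78.7 FPKM in KO and 112 and 96.3 FPKM in WT. Centring on the library median moved the members' median to −0.21 in KO and 0.05 in WT, so the direction in WT turned with the scaling and that in KO did not.

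Transcript length moved with these differences. Subunit mRNAs are short, with a median of 755 nt over the 81 genes against 2810 nt over the tested genes with a length. Between the libraries numbered 2, the 38 tested members under 750 nt had a median KO minus WT difference of −0.14, the 26 members of 750 to 1500 nt one of 0.04 and the 14 members of 1500 to 3000 nt one of 0.13. Genes that are not members ran the same way, with −0.03 over 309 genes, 0.03 over 1432 and 0.10 over 3678 in the same classes. Between the libraries numbered 1, members differed by 0.16, 0.14 and 0.26 in these classes, and genes that are not members by 0.12, 0.12 and 0.08. Across the 79 members the log2 of the length and the difference at number 2 had a Pearson r of 0.44 and a Spearman rho of 0.56, and at number 1 an r of 0.20 and a rho of 0.25. Over the 10104 tested genes with a length, r was 0.10 at number 2 and −0.15 at number 1. For the log2 change over all 4 libraries, r was 0.355 and rho 0.483 across the members, and r was −0.02 over the 10104 genes. These are descriptions across genes that share the same libraries. Where a gene had several transcripts, as Uqcrq and Atp5g1 did, the length is their median. The part of length in the differences was not tested.

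**Figure D4:**
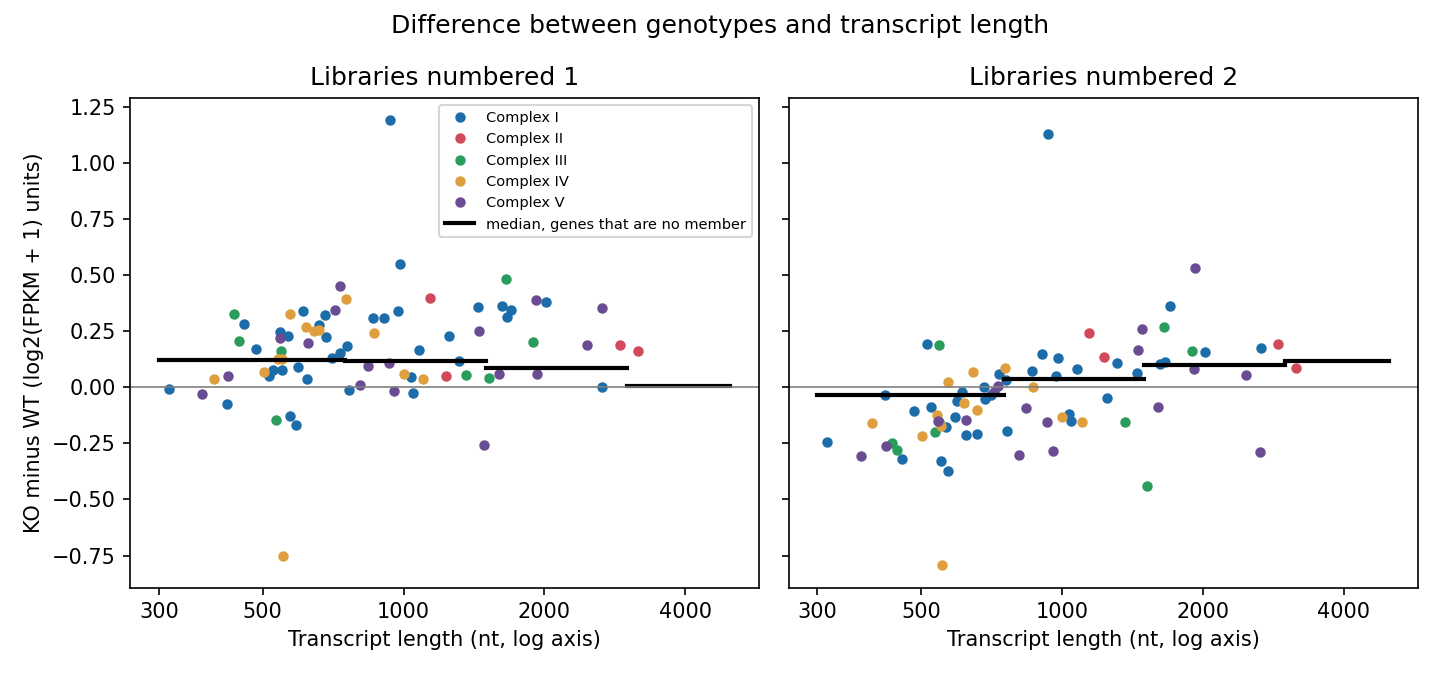
Difference between KO and WT on the log2(FPKM + 1) scale against transcript length (log axis) for 79 subunit genes, between the libraries numbered 1 (left) and those numbered 2 (right). Black bars are medians of genes that are not members, per length class, and the last class, from 3000 nt, has no upper limit and its bar is drawn short. At number 2 the members under 750 nt have a median of −0.14 and those of 1500 to 3000 nt one of 0.13.

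Other genes of the pathway were read from fixed lists, and none of their members passed over all genes (limma). Of the 14 citric acid cycle genes, 9 were higher in both KO libraries (64.3%, against 29.9% of all genes tested) and 0 lower in both (against 10.8%), with a median log2 change of 0.25, beside 0.07 over all genes tested. With median-centred values these counts were 9 and 1 of 14 (against 19.9% and 20.1%). With quantile normalization they were 10 and 1 of 14 (against 20.7% and 20.1%). With the globin genes left out they were 8 and 0 of 14 (against 22.3% and 15.2%). Idh2, the mitochondrial NADP-dependent isocitrate dehydrogenase, stood at 50.2 and 35.1 FPKM in KO and 28.4 and 26.7 FPKM in WT (limma adjusted p = 0.342). Cs, the citrate synthase, stood at 106.6 and 92.2 FPKM in KO and 83.6 and 70.7 FPKM in WT (limma adjusted p = 0.453).

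Of 21 genes for ubiquinone synthesis, electron carriers and subunits outside the symbol rule, 7 were higher (33.3%, against 29.9% of all genes tested) and 3 lower (14.3%, against 10.8%) in both KO libraries, shares near those of all genes. Atpif1, the inhibitor of the ATP synthase, which is known to be needed for heme synthesis, stood at 187 and 243 FPKM in KO and 142 and 162 FPKM in WT (log2 change 0.49, limma adjusted p = 0.386). Coq7, an enzyme of ubiquinone synthesis, stood at 4.02 and 2.72 FPKM in KO and 4.99 and 5 FPKM in WT (log2 change −0.47, limma adjusted p = 0.428). Of 46 tested assembly factors 10 were higher (21.7%, against 29.9% of all genes tested) and 2 lower (4.35%, against 10.8%) in both KO libraries, with a median log2 change of 0.02. With median-centred values these counts were 6 and 9 of 46 (against 19.9% and 20.1%) and the median was −0.06. Of 15 regulators of mitochondrial transcription and biogenesis 2 were higher (13.3%, against 29.9% of all genes tested) and 3 lower (20.0%, against 10.8%) in both. These counts were 1 and 5 of 15 with median-centred values (against 19.9% and 20.1%) and with quantile normalization (against 20.7% and 20.1%). With the globin genes left out they were 0 and 3 of 15 (against 22.3% and 15.2%). The transcription factor Nrf1, whose motif was searched above, stood at 11.7 and 11.2 FPKM in KO and 15.25 and 12.5 FPKM in WT (limma adjusted p = 0.616).

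Some member values carry limits of their own. For 11 of the 81 genes a processed pseudogene matched the mRNA over at least 50% of its length at 95% identity or more, so their reads may be split, with 8 such copies for Atp5l and 3 each for Uqcrb and Atp5h. Of the 81 genes, 27 overlap a neighbour by at least 1 base, among them Atp5j, which shares 967 bases with Gabpa. Transcripts assembled from the reads are part of the values of 13 members, among them Ndufs4, Sdhb and Atp5sl.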

How the data were processed

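The authors deposited 1 value per gene and library, in a table whose header names no unit. The deposited values were made by the authors and were taken here as FPKM, scaled to length and depth, from the numbers themselves: multiplied by transcript length they summed to between 1.02e+09 and 1.04e+09 per library, while the plain totals differed. Per the submitters' processing notes, TopHat2 and the mm10 build are listed, with no version or role. The program behind the values and the handling of strand are not given in the sources used here. Per the labels' protocols, libraries were made after removal of ribosomal RNA. Libraries were grouped by genotype and numbered from their titles.

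The test scale was log2(FPKM + 1). A gene entered the fit if 2 or more libraries reached 1 FPKM, which left 10670 genes. KO was compared with WT in limma 3.58.1 (R 4.3.3, eBayes with trend, no covariate), with Benjamini-Hochberg adjustment over all tested genes and a threshold of 0.05. An exact permutation test of 2 against 2 cannot go below p = 0.333 and was not run. The procedure was also run on simulated data. The simulated noise was independent between libraries and its spread was smoothed over genes of like level. That run therefore does not measure how many true changes could be found in these libraries. Library numbers were compared without a test. Depth was estimated over at least 150 short genes with low values, each with a step for 1 fragment set by its own length. The minimum of 150 genes was raised from 50 after 1 library gave a far higher value resting on few genes. Lengths came from GENCODE M21 through RefSeq identifiers (81 of 81 members), copies from BLAST 2.17.0, and windows from RefSeq (GRCm38.p6). Tables and figures were made with pandas 2.3.3 and matplotlib 3.10.9.

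The rule named, per complex, the 3 most abundant members and those with the largest rise, fall and library difference, and all isoform groups; other members named in the text were chosen after their values were seen. The members, lists and alternatives were chosen with earlier results of these data known.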

Additional observations from a re-analysis of the deposited data

How the results depend on the processing

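The count of 10 genes past the threshold over all genes tested was unstable. It was 21 with the globin genes left out, 2 with a mean of at least 5 FPKM, 0 without the filter on low values (limma, with 1692 genes at an unadjusted p under 0.05), and between 3 and 738 with 1 library left out. With the library number as a block it was 1863 of the 10670 genes tested. Of the 79 subunit genes tested, 6 then passed instead of 0 (Cox6b2, Ndufa4l2, Ndufs4, Ndufs8, Sdhb and Uqcrc1), a smaller share than over all genes tested. The labels do not say that a number marks a shared culture, and there are only 2 pairs; deviations of same-numbered libraries had a correlation of 0.606 over 10670 genes. Without KO library 1, Uqcrq had a log2 change of −0.59, against −0.20 with all libraries. The lone KO library is then assumed to vary like the WT pair.

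Leaving out 1 library put the median KO minus WT change between −0.020 and 0.21 in complex I and −0.20 and 0.20 in complex III. It put that change between −0.12 and 0.19 in complex IV and between −0.12 and 0.15 in complex V. The complex II median was 0.079 median-centred and 0.10 with globin genes left out. Its library 2 minus library 1 median was 0.11 median-centred, 0.10 under quantile normalization and 0.039 with globin genes left out. With 1 library left out, only the other genotype still holds both numbers, so that setting gives the median of 1 genotype. For complex II this was 0.0065 in KO and 0.026 in WT. For complex V it was −0.38 in KO and −0.12 in WT.

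Counts of members also moved under settings added after seeing the data. With median-centred values 9 were higher and 7 lower in both KO libraries, 16 had KO above WT at both numbers, 2 had KO below WT at number 1 and above at number 2, and 28 were lower in library 2 of both genotypes. With quantile normalization 7 were lower in both and 5 were below at number 1 and above at number 2. With globin genes left out 13 were higher and 7 lower in both, and 5 were below at number 1 and above at number 2. The cause was not tested. With 2 libraries per genotype, small differences cannot be resolved.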
